A study of Mus musculus with 12 samples.

Results

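Cholesterol and fatty acid synthesis genes were followed as a group of 30 genes of the SREBP pathway, looked up by symbol among the 24421 genes of the count table. The sterol arm held 17 of them, the fatty acid arm 8, and 5 were regulators of the pathway. The genes come from mouse ES cells in which the catalytic subunit of the mSWI/SNF chromatin remodeller, BRG1 (gene Smarca4), was degraded to graded extents, so each comparison asks how far the expression of these genes moved with the dose of the degrader. RNA-seq was done in cells of genotype Brg1 dTag knock in on a B6 background, grown in 2i+LIF. The knock-in joins BRG1 to a degron, and dTAG13 is a small molecule that brings the degron to the protein degradation machinery. Cells received 0.3, 1, 3, 10 or 100 nM dTAG13 for 24 h, or none in the libraries labelled as controls (0 nM). Each of the 6 conditions had 2 libraries, 12 in all, and every one, controls included, carries the knock-in. Per the methods, tagged lines were picked as colonies that each grew from a single cell, and the culture medium held serum. The 2 control libraries serve all 5 dose comparisons, which are therefore not independent of each other.

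The SREBP proteins are transcription factors made as membrane-bound precursors in the endoplasmic reticulum. When sterols run low, SCAP escorts the precursor to the Golgi, where proteases release the part that enters the nucleus. When sterols are plentiful, the INSIG proteins hold SCAP and its cargo back. SREBP2, from Srebf2, acts mainly on the genes of cholesterol synthesis, and SREBP1, from Srebf1, mainly on those of fatty acid synthesis and desaturation, and Insig1 is itself a target of the pathway. Rapidly dividing cells use both arms for membranes.

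The pathway is best known for elements close to gene starts, so the bases just upstream are shown for members on which the results below turn, that is, sterol genes and regulators that were lower at 100 nM, 2 genes that were higher, and the only member with a match to the sterol regulatory element. RefSeq promoters (GRCm38.p6) were found for 23 of the 30 genes. Those of Fads1, Fdft1, Fdps, Scd1, Scd2, Sqle and Stard4 were not matched. Where a gene had several promoters, only the one nearest its start in the count table was searched. The window is the 250 bases before the start annotated in RefSeq, written 5′ to 3′ on the gene's own strand. For Pmvk, not shown, that start lies 453 bases downstream of the gene start in the count table, so its window lies inside the gene. Capitals mark the sterol regulatory element TCACNCCAC or the NF-Y box CCAAT, each searched on both strands, so that CCAAT on the opposite strand reads ATTGG.
Hmgcs1 (chr13:119690101-119690350, plus strand): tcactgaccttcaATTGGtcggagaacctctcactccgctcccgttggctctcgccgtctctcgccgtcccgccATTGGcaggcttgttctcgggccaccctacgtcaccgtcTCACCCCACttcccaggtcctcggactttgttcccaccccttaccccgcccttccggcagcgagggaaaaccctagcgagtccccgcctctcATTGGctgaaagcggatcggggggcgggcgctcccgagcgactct
Lss (chr10:76531355-76531604, plus strand): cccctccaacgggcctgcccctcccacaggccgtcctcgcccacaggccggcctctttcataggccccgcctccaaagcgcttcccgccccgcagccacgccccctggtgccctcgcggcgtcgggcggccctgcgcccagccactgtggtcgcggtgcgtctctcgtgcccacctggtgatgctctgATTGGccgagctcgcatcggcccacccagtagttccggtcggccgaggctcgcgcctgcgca
Cyp51 (chr5:4104698-4104947, minus strand): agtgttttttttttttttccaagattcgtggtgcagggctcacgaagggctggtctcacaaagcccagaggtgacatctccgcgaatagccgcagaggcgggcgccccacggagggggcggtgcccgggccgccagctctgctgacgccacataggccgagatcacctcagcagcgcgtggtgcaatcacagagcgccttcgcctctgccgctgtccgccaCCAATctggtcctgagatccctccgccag
Msmo1 (chr8:64733579-64733828, minus strand): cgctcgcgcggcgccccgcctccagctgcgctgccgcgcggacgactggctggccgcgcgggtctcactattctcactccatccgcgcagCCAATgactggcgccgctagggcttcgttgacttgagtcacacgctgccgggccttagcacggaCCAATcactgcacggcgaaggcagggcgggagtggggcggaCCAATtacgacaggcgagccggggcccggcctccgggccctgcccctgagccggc
Nsdhl (chrX:72918271-72918520, plus strand): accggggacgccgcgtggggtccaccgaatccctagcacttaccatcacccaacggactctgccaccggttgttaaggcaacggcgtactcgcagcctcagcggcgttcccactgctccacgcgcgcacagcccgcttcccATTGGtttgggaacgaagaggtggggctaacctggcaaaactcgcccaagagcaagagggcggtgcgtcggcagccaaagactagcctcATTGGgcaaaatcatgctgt
Srebf2 (chr15:82147019-82147268, plus strand): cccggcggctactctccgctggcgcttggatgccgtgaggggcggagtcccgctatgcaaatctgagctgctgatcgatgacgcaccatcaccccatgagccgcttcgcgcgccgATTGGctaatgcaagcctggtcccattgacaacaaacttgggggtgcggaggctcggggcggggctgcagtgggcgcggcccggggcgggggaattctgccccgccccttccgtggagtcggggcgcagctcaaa
Insig1 (chr5:28071162-28071411, plus strand): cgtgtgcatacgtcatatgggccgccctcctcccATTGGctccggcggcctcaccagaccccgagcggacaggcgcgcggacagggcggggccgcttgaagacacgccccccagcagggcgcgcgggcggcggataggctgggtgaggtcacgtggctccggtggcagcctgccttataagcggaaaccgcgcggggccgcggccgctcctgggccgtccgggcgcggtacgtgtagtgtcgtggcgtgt
Scap (chr9:110333038-110333287, plus strand): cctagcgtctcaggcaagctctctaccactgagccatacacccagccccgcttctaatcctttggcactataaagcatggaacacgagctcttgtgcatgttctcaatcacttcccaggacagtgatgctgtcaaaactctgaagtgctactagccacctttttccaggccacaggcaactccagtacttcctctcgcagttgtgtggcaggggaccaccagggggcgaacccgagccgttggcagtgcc
Elovl6 (chr3:129532136-129532385, plus strand): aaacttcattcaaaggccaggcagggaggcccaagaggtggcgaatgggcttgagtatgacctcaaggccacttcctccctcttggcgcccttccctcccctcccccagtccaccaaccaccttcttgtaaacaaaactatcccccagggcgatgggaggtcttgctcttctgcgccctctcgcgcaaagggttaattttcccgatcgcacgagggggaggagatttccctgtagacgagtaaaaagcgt

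Of 32851 RefSeq promoters of the same length, 1.05% held TCACNCCAC, and among the 23 members it was found in Hmgcs1 alone, 137 to 129 bases upstream of the start. The E-box was searched only as TCACGTGA, which was in 0.785% of all promoters and in 0 members. Its shorter core CACGTG was not searched, and it stands, for example, in the Insig1 window above. The NF-Y box was in 33.8% of all promoters and in 14 of 23 members, that is, in 10 of 13 sterol genes, 1 of 5 fatty acid genes (Fasn, with 3 matches) and 3 of 5 regulators. The Sp1 box GGGCGG, not capitalised above, was in 32.7% of all promoters, 12 of 13 sterol genes, 2 of 5 fatty acid genes and 3 of 5 regulators. The 13 sterol genes include Pmvk, whose window lies inside the gene and held none of these motifs. No match shared bases with a match of another motif in these members, and a match says only that the letters are there. Looser forms were not searched, so the lack of a match does not show the lack of a site. In the Srebf2 window above, for example, TCACCCCAT differs from TCACNCCAC only in its last letter.

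Total counts ran from 4663484 to 6375582 per library (median 5956669.5), of which the 30 genes took between 0.2986% and 0.3583%. The ribosomal RNA gene Rn45s took 10.5% to 19.41%. Its share differed within pairs, at 10.5% and 19% in the 3 nM libraries and 17.73% and 12.07% in those of 10 nM. The part of this in the results was not tested. Levels are given as RPKM, the counts scaled for library size and for exon length, and 11378 genes averaging 1 RPKM or more were tested, all 30 members among them. All 10 ES cell markers stood over 1 RPKM at every dose, while 0 of 6 primitive endoderm, 0 of 4 fibroblast, 1 of 4 mesoderm and 3 of 4 neuroectoderm markers did. The ES cell markers summed to 2300 to 2330 RPKM at 0 nM and 2160 to 2200 at 100 nM, and single ones moved both ways. Tfcp2l1 went from 130 and 132 RPKM at 0 nM to 83.0 and 85.1 at 100 nM, and Nanog from 231 and 227 to 328.5 and 329.3. Of 6 trophectoderm markers 4 averaged over 1 RPKM at each dose, with Gata3 but not Cdx2 among them up to 3 nM and Cdx2 but not Gata3 at 10 and 100 nM. Cdx2 was at 0.80 and 0.30 RPKM at 0 nM and 4.94 and 4.57 at 100 nM, Gata3 at 1.5 and 1.16 against 0.62 and 0.51, and Krt8 at 8.47 and 9.74 against 2.38 and 2.08. The mesoderm markers summed to 4.91 to 6.66 RPKM at 0 nM and 8.68 to 8.95 at 100 nM. Summed, the neuroectoderm markers, most of whose level is Tubb3, were at 35.6 to 39.9 RPKM at 0 nM, 53.9 to 54.3 at 3 nM and 68.3 to 70.4 at 100 nM, and the part of these moves in the results below was not tested. The transcript of Smarca4 does not report on degradation of the protein, and it was 63.5 to 64.2 RPKM at 0 nM and 71.2 to 71.3 RPKM at 100 nM. In bulk RNA a change in the share of cells and a change in RNA per cell cannot be told apart.

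Without dTAG13 both arms were well expressed. In the fatty acid arm mean levels at 0 nM ran from 14.4 RPKM (Fads1) to 128 RPKM (Scd2), with a median of 28.8 RPKM. The sterol arm ran from 2.18 RPKM (Hsd17b7) to 67.5 RPKM (Msmo1), with a median of 16.8 RPKM, and the regulators from 4.20 RPKM (Insig2) to 43.5 RPKM (Srebf2). The stearoyl-CoA desaturase Scd2, the fatty acid synthase Fasn (78.7 RPKM) and the citrate lyase Acly (80.4 RPKM), which supplies cytosolic acetyl-CoA to both arms, were the most abundant of the 30.

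With rising dose the members moved by small steps, mostly down. At 0.3 nM 1 of 30 members was lower and 0 were higher, against 0.0703% and 0% of all genes tested. At 1 nM 5 members were lower (1.52% of all genes) and 0 higher (0.773%). At 3 nM 8 were lower (5.25%) and 1 higher (4.15%), and at 10 nM 13 were lower (10.1%) and 1 higher (7.87%). At 100 nM 12 were lower (13.3%) and 5 higher (10.1%). These calls are from edgeR's quasi-likelihood test at an adjusted p under 0.05. Few reached 1.5-fold, that is, 0 members at 0.3 nM (0.0176% of all genes lower) and at 1 nM (0.729%), 2 lower at 3 nM (2.38% of all genes), 3 lower at 10 nM (4.92%) and 3 lower at 100 nM (6.83%). No member was over 1.5-fold higher at 100 nM (4.37% of all genes). Single libraries moved these counts. The 1 member lower at 0.3 nM lost its call without either control or either 0.3 nM library. The members lower at 1 nM came to 0 without 1 nM replicate 2, to 3 without 1 nM replicate 1 and to 2 without either control. Those lower at 3 nM came to 3 without 0 nM replicate 1 and to 5 without 3 nM replicate 2. At 10 nM 8 were lower without 0 nM replicate 2 or without 10 nM replicate 2. At 100 nM 6 were lower without 100 nM replicate 1 and 7 without 0 nM replicate 2, while the members higher came to 1 without 0 nM replicate 1, 3 without 0 nM replicate 2 and 2 without 100 nM replicate 2.

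**Figure D1:**
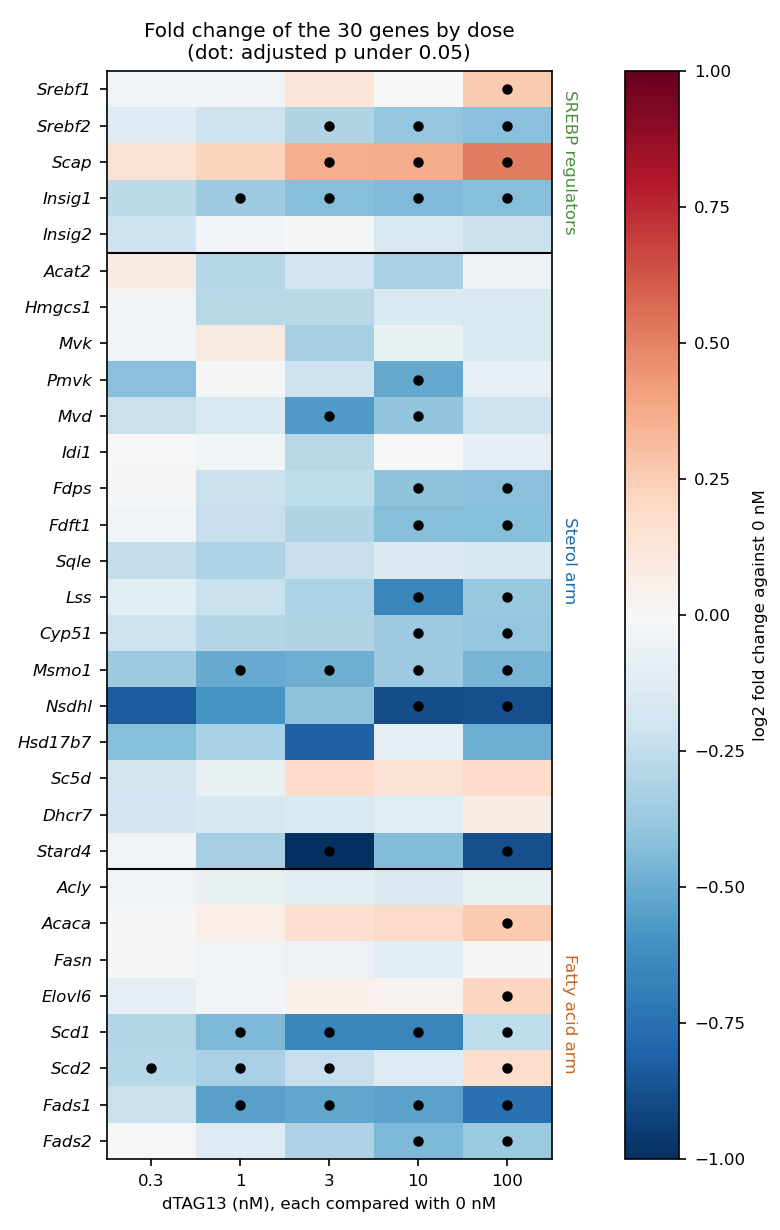
Log2 fold change of each of the 30 genes (rows, grouped as regulators, sterol arm and fatty acid arm) at each dTAG13 dose (columns, nM) against 0 nM, blue for lower and red for higher, with a dot where the adjusted p was under 0.05. Blue prevails in the sterol arm at every dose, with 8 dots at 10 nM and 7 at 100 nM, while the fatty acid arm splits at 100 nM into 3 higher and 3 lower genes.

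The 2 arms differed most in their counts at the highest dose, a difference that was not tested. In the sterol arm 8 of 17 genes were lower at 10 nM and 7 at 100 nM, and none was higher at any dose. In the fatty acid arm 3 of 8 genes were lower at 10 nM, and at 100 nM 3 were lower and 3 higher. The median log2 fold change of the sterol arm was -0.18, -0.23, -0.30, -0.36 and -0.21 at 0.3, 1, 3, 10 and 100 nM. That of the fatty acid arm was -0.07, -0.10, -0.17, -0.14 and -0.03, and the median over all genes tested stayed within 0.005 of 0 at each dose. The higher calls at 100 nM hung on the scaling. With normalization factors taken over every counted gene, a choice added after the data were seen, the split of the members was 1 higher and 13 lower in place of 5 and 12, and that of all genes 802 higher and 2174 lower in place of 1151 and 1511. Without 0 nM replicate 1, 1 member was higher and 8 were lower.

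Averaged within each library, the arms stood in the same order in every dosed library. The mean log2 level of the sterol arm, relative to the 0 nM mean, was -0.20 and -0.18 at 0.3 nM, -0.23 and -0.24 at 1 nM, -0.33 and -0.36 at 3 nM, -0.34 and -0.27 at 10 nM, then -0.30 and -0.28 at 100 nM. The fatty acid arm was at -0.11 and -0.13, -0.18 and -0.20, -0.20 and -0.21, -0.20 and -0.26, and then -0.15 and -0.05. In all 10 of these libraries the sterol arm lay below the fatty acid arm, with a difference that ran from -0.01 in 10 nM replicate 2 to -0.23 in 100 nM replicate 2. In the 2 controls, from whose mean every library is measured, the difference was 0.028 and -0.028. That in 10 nM replicate 2 was smaller, and those at 1 nM (-0.05 and -0.041) were little larger. Summed over its genes, the sterol arm went from 340.6 to 341.6 RPKM at 0 nM to 279.0 to 282.5 RPKM at 100 nM. The fatty acid arm, most of whose sum is Scd2, Fasn and Acly, went from 389.5 to 399.0 RPKM at 0 nM to 344.5 to 354.6 at 1 nM and 397.5 to 404.2 at 100 nM. No test was made of these averages, since the genes were chosen with results known.

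**Figure D2:**
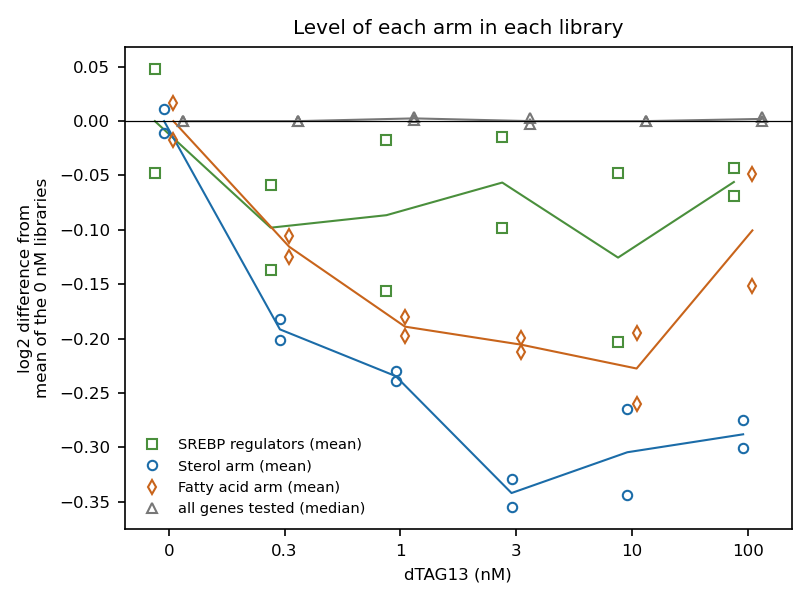
Mean log2 difference from the 0 nM libraries over the genes of each arm (y axis) in each of the 12 libraries by dTAG13 dose (x axis, nM, evenly spaced), with lines through the mean of 2 libraries and the median of all genes tested in grey. The sterol arm sits at -0.33 and -0.36 at 3 nM and at -0.30 and -0.28 at 100 nM, while the fatty acid arm comes back to -0.15 and -0.05 at 100 nM.

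Among the regulators, the transcript of Srebf2 fell and that of Scap rose. Srebf2, the source of SREBP2, stood at 44.9 and 42.2 RPKM at 0 nM, 40.0 and 39.6 at 0.3 nM, 37.1 and 38.1 at 1 nM, 35.8 and 35.0 at 3 nM, 35.0 and 31.5 at 10 nM, then 31.7 and 33.5 at 100 nM. All 10 dosed libraries lay below both controls. It passed at 3 nM (log2 fold change -0.30, adjusted p = 0.00572), 10 nM (-0.39, adjusted p = 0.000194) and 100 nM (-0.42 with a standard error of 0.069, adjusted p = 5.38e-05), where 74.9% of the 0 nM level was left. At 0.3 and 1 nM it missed the threshold (-0.13, adjusted p = 0.703, and -0.21, adjusted p = 0.123).

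Scap, the escort of the SREBP precursors, went the other way. It stood at 10.1 and 10.3 RPKM at 0 nM, 11.5 and 11.2 at 0.3 nM, 12 and 11.8 at 1 nM, 12.9 and 13.4 at 3 nM, 13.9 and 12.5 at 10 nM, then 14.4 and 14.9 at 100 nM. No dosed library overlapped the controls, and the 100 nM libraries were the highest of all. The log2 fold change was 0.36 at 3 nM (adjusted p = 0.0171), 0.37 at 10 nM (adjusted p = 0.00796) and 0.52 at 100 nM (standard error 0.0948, adjusted p = 0.000161), which was the largest rise among the 30 genes. Of its annotated transcript, 10.2% of the 75-base words also occur in 5830462I19Rik, so a small share of its reads could come from either gene. Read pairs that map to several places were left out of the counts.

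Insig1, which retains SCAP when sterols are plentiful, fell early. Its levels were 23.0 and 21.6 RPKM at 0 nM, 17.9 and 19.2 at 0.3 nM, 17.8 and 16.9 at 1 nM, 16.8 and 16.4 at 3 nM, 16.7 and 16 at 10 nM, then 17.3 and 15.9 at 100 nM. Insig1 passed at 1 nM (log2 fold change -0.36, adjusted p = 0.0472) and at each higher dose, with -0.42 at 3 nM (adjusted p = 0.00676), -0.44 at 10 nM (adjusted p = 0.00201) and -0.42 at 100 nM (standard error 0.0978, adjusted p = 0.00202). From 1 nM on all its libraries lay between 15.9 and 17.8 RPKM. The second retention gene, Insig2, was low, at 4.48 and 3.91 RPKM at 0 nM, 3.23 and 4.04 at 0.3 nM, 4.90 and 3.33 at 1 nM, 3.37 and 4.88 at 3 nM, 3.86 and 3.63 at 10 nM, then 3.25 and 3.93 at 100 nM. Its libraries overlapped the controls at 100 nM (log2 fold change -0.22, standard error 0.223, adjusted p = 0.526), a spread within which a change of the size seen in Insig1 was not detectable.

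Srebf1, the source of SREBP1, stood at 19.1 and 17.4 RPKM at 0 nM, 17.6 and 17.9 at 0.3 nM, 18.4 and 17.3 at 1 nM, 20.5 and 19.2 at 3 nM, 20.3 and 16.3 at 10 nM, then 23.0 and 20.8 at 100 nM. The 100 nM libraries were the highest, and those of 3 nM also stood just above both controls. The log2 fold change of 0.26 at 100 nM (standard error 0.0958) just passed (adjusted p = 0.0484), and it missed the threshold under 13 of 22 alternatives, among them the likelihood ratio test (adjusted p = 0.0625) and leaving out 0 nM replicate 2 (log2 fold change 0.19, adjusted p = 0.313). Whether the response of Srebf1 differed from that of Srebf2 was not tested.

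**Figure D3:**
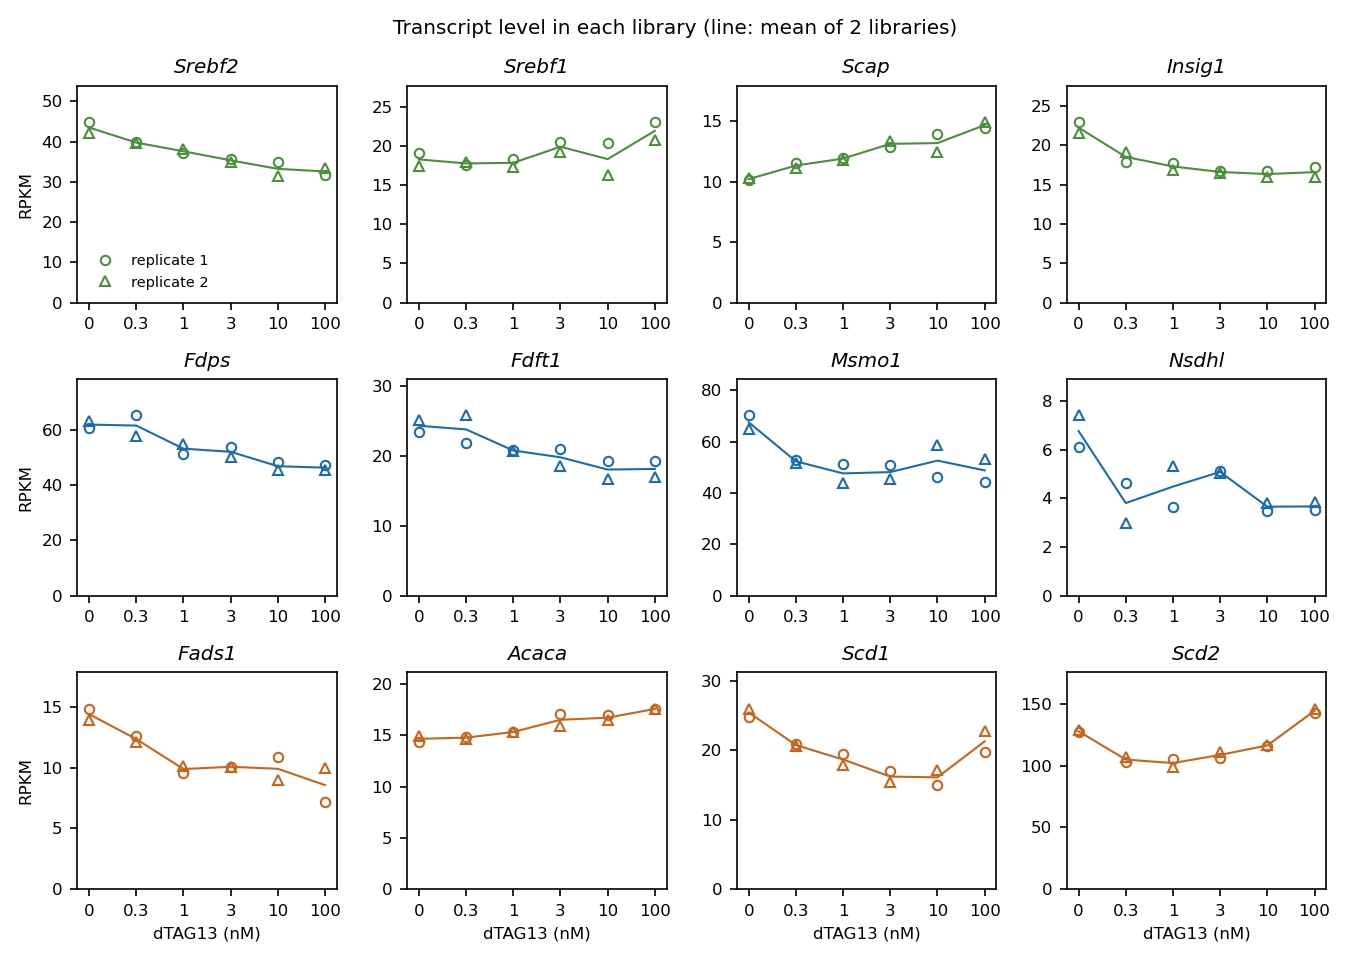
RPKM (y axes, from 0) in each library by dTAG13 dose (x axes, nM, evenly spaced) for 4 regulators (green), 4 sterol genes (blue) and 4 fatty acid genes (orange), with circles for replicate 1, triangles for replicate 2 and lines through the mean of 2 libraries. Srebf2, Insig1, Fdps and Fads1 descend with dose, Scap and Acaca climb, and Scd1 and Scd2 dip at low or middle doses before they stand higher again at 100 nM.

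The genes of the sterol arm are taken in the order of the pathway. Of the 6 enzymes of the early steps, from acetyl-CoA to mevalonate and on to isopentenyl diphosphate, 0 passed the test at 100 nM. In simulated data only 15 of 50 genes, drawn at random from all genes tested and changed 1.3-fold, were called at that dose. Not passing therefore does not show that a gene was unchanged. That share is not one for these 6 genes, whose standard errors differ, for example 0.0887 for Hmgcs1 and 0.201 for Mvk. At 100 nM the log2 fold changes of Acat2 (acetoacetyl-CoA thiolase), Hmgcs1 (HMG-CoA synthase), Mvk and Pmvk (the kinases of mevalonate) and Idi1 (isopentenyl diphosphate isomerase) lay between -0.16 and -0.06, and none passed, with adjusted p from 0.22 upward. Those of Acat2 and Mvk turned positive when 0 nM replicate 1 was left out (0.04 and 0.01). Pmvk was lower at 10 nM (-0.51, adjusted p = 0.0175) and not at 100 nM (-0.09). Hmgcs1, the member with the matched sterol regulatory element shown above, was 36.4 and 35.4 RPKM at 0 nM and 30.8 and 33.7 RPKM at 100 nM, below both controls without passing (log2 fold change -0.16, adjusted p = 0.22). It did pass with no filter on low values (-0.24, adjusted p = 0.0358). Of the 75-base words of Acat2, Idi1 and Hmgcs1, 40.7%, 29.1% and 12.2% also occur in other genes.

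Mvd, the decarboxylase that makes isopentenyl diphosphate, was lowest at 3 nM. It stood at 20.8 and 21.4 RPKM at 0 nM, 18.1 and 18.1 at 0.3 nM, 20.4 and 17.7 at 1 nM, 15.7 and 13 at 3 nM, 18.4 and 13.5 at 10 nM, then 19.2 and 17.4 at 100 nM. Every dosed library was below both controls. It passed at 3 nM (log2 fold change -0.56, adjusted p = 0.00955) and 10 nM (-0.40, adjusted p = 0.0405), and not at 100 nM (-0.21, adjusted p = 0.277).

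Fdps and Fdft1, which build farnesyl diphosphate and join it into squalene, were the 2 genes at the entry to sterols proper that fell. Fdps (mm10 chr3:89093588-89101967) stood at 60.5 and 63.1 RPKM at 0 nM, 65.2 and 57.8 at 0.3 nM, 51.4 and 54.9 at 1 nM, 53.9 and 50.1 at 3 nM, 48.3 and 45.3 at 10 nM, then 47.3 and 45.3 at 100 nM. Fdft1 (chr14:63145151-63179578) stood at 23.5 and 25.2, 21.8 and 25.8, 20.9 and 20.7, 21.1 and 18.6, 19.4 and 16.8, and 19.3 and 17 RPKM at the same doses. For both, the 0.3 nM libraries straddled the controls and those from 1 nM on lay below them. At 100 nM the log2 fold change was -0.42 for Fdps (standard error 0.0874, adjusted p = 0.000763) and -0.42 for Fdft1 (0.0994, adjusted p = 0.0024), close to the values at 10 nM (-0.40 and -0.43). Fdft1 lost its call without 100 nM replicate 2 (-0.33, adjusted p = 0.0703). Both genes share sequence with others, 80.4% of 75-base words of Fdps with gene copies such as Gm3571, and 25.4% of those of Fdft1 with Ctsb and Gm6781, and the counts left out read pairs that map to several places. Fdft1 also overlaps Ctsb on the opposite strand over 773 bases, 20.9% of its exon length, and the counting did not use strand.

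Of the next enzymes, the epoxidase Sqle did not pass at 100 nM (-0.17, adjusted p = 0.233), whereas lanosterol synthase Lss and the lanosterol demethylase Cyp51 fell. Lss averaged 5.83 ± 0.968 RPKM in the controls and 4.47 ± 0.0770 RPKM in the 100 nM libraries (SD, n = 2 for both), a log2 fold change of -0.38 (adjusted p = 0.0346), and stood lower still at 10 nM (-0.66, adjusted p = 0.000837). For Cyp51 the averages were 17.4 ± 1.40 and 13.3 ± 0.868 RPKM (SD, n = 2 for both) and the log2 fold change -0.39 (adjusted p = 0.00661). The call of Lss at 100 nM was lost under 5 of 22 alternatives, among them leaving out 0 nM replicate 1 (-0.20, adjusted p = 0.408), and that of Cyp51 under 2, without 0 nM replicate 2 or without 100 nM replicate 2 (adjusted p = 0.11 and 0.0987).

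Among the 7 sterol genes that passed at 100 nM, the largest falls there were at Nsdhl and Msmo1, enzymes that strip methyl groups from the sterol ring, and at Stard4, which carries sterol between membranes. Msmo1, the methylsterol oxidase, stood at 70.2 and 64.8 RPKM at 0 nM, 52.8 and 51.9 at 0.3 nM, 51.3 and 44.0 at 1 nM, 51.0 and 45.3 at 3 nM, 46.4 and 58.8 at 10 nM, then 44.4 and 53.2 at 100 nM. All dosed libraries lay below both controls, with the lowest mean at 1 nM. It passed at 1 nM (log2 fold change -0.50, adjusted p = 0.00767), 3 nM (-0.49, adjusted p = 0.00307), 10 nM (-0.36, adjusted p = 0.0156) and 100 nM (-0.47, standard error 0.104, adjusted p = 0.00141). Its call at 100 nM was lost without 100 nM replicate 1 (-0.34, adjusted p = 0.0713).

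Nsdhl, the dehydrogenase that acts after Msmo1, stood at 6.12 and 7.41 RPKM at 0 nM, 4.61 and 3.01 at 0.3 nM, 3.64 and 5.33 at 1 nM, 5.12 and 5.05 at 3 nM, 3.50 and 3.82 at 10 nM, then 3.51 and 3.83 at 100 nM. These levels rest on 79 and 101 counts at 0 nM and 47 and 52 counts at 100 nM. Every dosed library was below the controls, and at 10 and 100 nM the replicates lay close together. The log2 fold change was -0.89 at 10 nM (adjusted p = 0.00681) and -0.88 at 100 nM (standard error 0.225, adjusted p = 0.00494), leaving 54.3% of the 0 nM level. At 0.3 nM the value of -0.83 did not pass (adjusted p = 0.255). Without 0 nM replicate 2 or without 100 nM replicate 1 the adjusted p at 100 nM was 0.078 and 0.0554.

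Stard4 (mm10 chr18:33201421-33213816) stood at 3.80 and 3.71 RPKM at 0 nM, 4.08 and 3.23 at 0.3 nM, 3.78 and 2.17 at 1 nM, 1.90 and 1.85 at 3 nM, 2.77 and 2.78 at 10 nM, then 1.66 and 2.41 at 100 nM, from 66 and 68 counts at 0 nM to 30 and 44 counts at 100 nM. The 3, 10 and 100 nM libraries lay below both controls, while those of the lower doses overlapped them or stood on both sides. It passed at 3 nM (log2 fold change -1.0, adjusted p = 0.0183) and 100 nM (-0.88, standard error 0.26, adjusted p = 0.0148), and not at 10 nM (-0.44, adjusted p = 0.258). The adjusted p at 100 nM was 0.0588 with DESeq2's Wald test and up to 0.186 with a control or 100 nM library left out.

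Hsd17b7, the reductase of the same demethylation steps, was the least expressed member, with 26 to 64 counts per library. It stood at 2.40 and 1.96 RPKM at 0 nM, 1.62 and 1.61 at 0.3 nM, 2.10 and 1.38 at 1 nM, 1.15 and 1.32 at 3 nM, 1.81 and 2.27 at 10 nM, then 1.48 and 1.61 at 100 nM. It was below both controls at 100 nM without passing (log2 fold change -0.49, standard error 0.244, adjusted p = 0.155). The last enzymes, the desaturase Sc5d and the reductase Dhcr7, were the only sterol genes with positive values at 100 nM, and neither passed. Sc5d averaged 10.7 ± 1.64 RPKM in the controls and 12.3 ± 0.355 RPKM in the 100 nM libraries (SD, n = 2 for both, log2 fold change 0.19, adjusted p = 0.443). For Dhcr7 the levels were 18.8 ± 0.589 and 19.8 ± 0.483 RPKM (SD, n = 2 for both, log2 fold change 0.08, adjusted p = 0.618), and the sign turned (-0.01) with normalization over every counted gene.

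In the fatty acid arm, the gene of the first committed step rose slightly while that of the synthase itself showed no detectable change. Acaca (mm10 chr11:84195438-84401651), acetyl-CoA carboxylase, stood at 14.3 and 14.9 RPKM at 0 nM, 14.9 and 14.7 at 0.3 nM, 15.3 and 15.3 at 1 nM, 17.1 and 15.9 at 3 nM, 17 and 16.4 at 10 nM, then 17.6 and 17.5 at 100 nM. The libraries from 1 nM on lay above both controls. The log2 fold change of 0.26 at 100 nM (standard error 0.0683) passed (adjusted p = 0.00609), but not with normalization over every counted gene (0.18, adjusted p = 0.0544), with no filter (0.18, adjusted p = 0.121) or without 0 nM replicate 1 (0.23, adjusted p = 0.0704). Of its words, 47.4% also occur in Gm5182. Fasn was 79.5 and 77.9 RPKM at 0 nM and 80.7 and 77.8 RPKM at 100 nM, on 3744 counts or more in every library (log2 fold change 0.01 with a standard error of 0.0511, adjusted p = 0.917), and its sign turned under 5 alternatives. Acly was at -0.07 (standard error 0.0587, adjusted p = 0.398).

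Elovl6, which lengthens the chains that Fasn makes, stood at 30.8 and 33.5 RPKM at 0 nM, 30.8 and 29.5 at 0.3 nM, 31.7 and 31.5 at 1 nM, 32.6 and 34.0 at 3 nM, 33.7 and 32.1 at 10 nM, then 35.8 and 38.9 at 100 nM. Only the 100 nM libraries were both above the controls. Its log2 fold change there was 0.22 (standard error 0.0669, adjusted p = 0.0192), and the call was lost without a filter (0.14, adjusted p = 0.229), with normalization over every counted gene (0.14, adjusted p = 0.145), and without 0 nM replicate 1 (0.16, adjusted p = 0.206) or 100 nM replicate 2 (0.16, adjusted p = 0.224).

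The stearoyl-CoA desaturases Scd1 and Scd2, neighbours on chromosome 19 that put the first double bond into fatty acids, fell at lower doses and stood higher again at 100 nM than at 10 nM. Scd2 (mm10 chr19:44293676-44306862) stood at 127 and 129 RPKM at 0 nM, 103 and 107 at 0.3 nM, 106 and 98.7 at 1 nM, 107 and 111 at 3 nM, 116 and 117 at 10 nM, then 143 and 146 at 100 nM. The replicates of each dose were close, the 4 lower doses lay below both controls, and the 100 nM libraries lay above every other library. It was the only member to pass at 0.3 nM (log2 fold change -0.29 with a standard error of 0.0522, adjusted p = 0.0202) and it fell by 0.33 at 1 nM (adjusted p = 0.000583) and by 0.23 at 3 nM (adjusted p = 0.00424). At 10 nM it did not pass (-0.14, adjusted p = 0.0746), and at 100 nM it was higher (0.18, standard error 0.0518, adjusted p = 0.0143). That rise over the control lost its call with no normalization factors (0.22, adjusted p = 0.0528), with no filter or normalization over every counted gene (0.09, adjusted p = 0.279 and 0.203), and without 0 nM replicate 1, 0 nM replicate 2 or 100 nM replicate 2 (adjusted p = 0.0893, 0.0718 and 0.114).

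Scd1 (chr19:44394450-44407709) stood at 24.8 and 26.0 RPKM at 0 nM, 20.9 and 20.5 at 0.3 nM, 19.4 and 17.9 at 1 nM, 17 and 15.4 at 3 nM, 15 and 17.1 at 10 nM, then 19.7 and 22.8 at 100 nM. All dosed libraries were below both controls, with the lowest at 3 and 10 nM. Log2 fold changes were -0.45 at 1 nM (adjusted p = 0.00455), -0.65 at 3 nM (standard error 0.0897, adjusted p = 1.77e-05), -0.66 at 10 nM (standard error 0.0887, adjusted p = 4.85e-06) and -0.26 at 100 nM (standard error 0.0863, adjusted p = 0.0318). That last call was lost under 5 alternatives, among them DESeq2's Wald test (adjusted p = 0.0965) and each control left out. Between the 2 desaturases 3.24% of the words of Scd1 and 1.8% of those of Scd2 occur in other Scd genes.

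Compared directly, 100 nM against 10 nM, a contrast added after the values were seen, Scd1 and Scd2 were the only members to pass. Both were higher at 100 nM, against 0.615% of all genes higher and 1.76% lower. The log2 fold change was 0.40 for Scd1 (standard error 0.0897, adjusted p = 0.0113) and 0.31 for Scd2 (standard error 0.0519, adjusted p = 0.000629). The fatty acid arm had a median of 0.10 in this contrast and the sterol arm one of -0.01, with 0 of 17 sterol genes passing.

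The desaturases of polyunsaturated fatty acids, Fads1 and Fads2, fell and stayed low. Fads1 (mm10 chr19:10182888-10196872) stood at 14.8 and 13.9 RPKM at 0 nM, 12.6 and 12.1 at 0.3 nM, 9.59 and 10.2 at 1 nM, 10.0 and 10.1 at 3 nM, 10.8 and 8.94 at 10 nM, then 7.13 and 9.97 at 100 nM. It was lower at 1 nM (log2 fold change -0.54, adjusted p = 0.0183), 3 nM (-0.52, adjusted p = 0.0105), 10 nM (-0.54, adjusted p = 0.00368) and 100 nM (-0.75, standard error 0.129, adjusted p = 8.91e-05). No dosed library reached the controls, and the 2 libraries at 100 nM differed more than at any other dose. Leaving out one or the other of them gave -0.53 and -1.01, and the call held under all 22 alternatives.

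Fads2 (chr19:10064164-10101503) stood at 20.3 and 20.7 RPKM at 0 nM, 21.2 and 19.9 at 0.3 nM, 18.4 and 19.0 at 1 nM, 16.4 and 16.6 at 3 nM, 15.7 and 14.3 at 10 nM, then 15.2 and 16.5 at 100 nM. From 1 nM on all libraries lay below the controls. It passed at 10 nM (log2 fold change -0.45, adjusted p = 0.0122) and 100 nM (-0.37, standard error 0.123, adjusted p = 0.0282). The latter call was lost with DESeq2's Wald test (adjusted p = 0.156), with no normalization factors (0.0969) and with any of the 4 control and 100 nM libraries left out (0.0582 to 0.181).

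**Figure D4:**
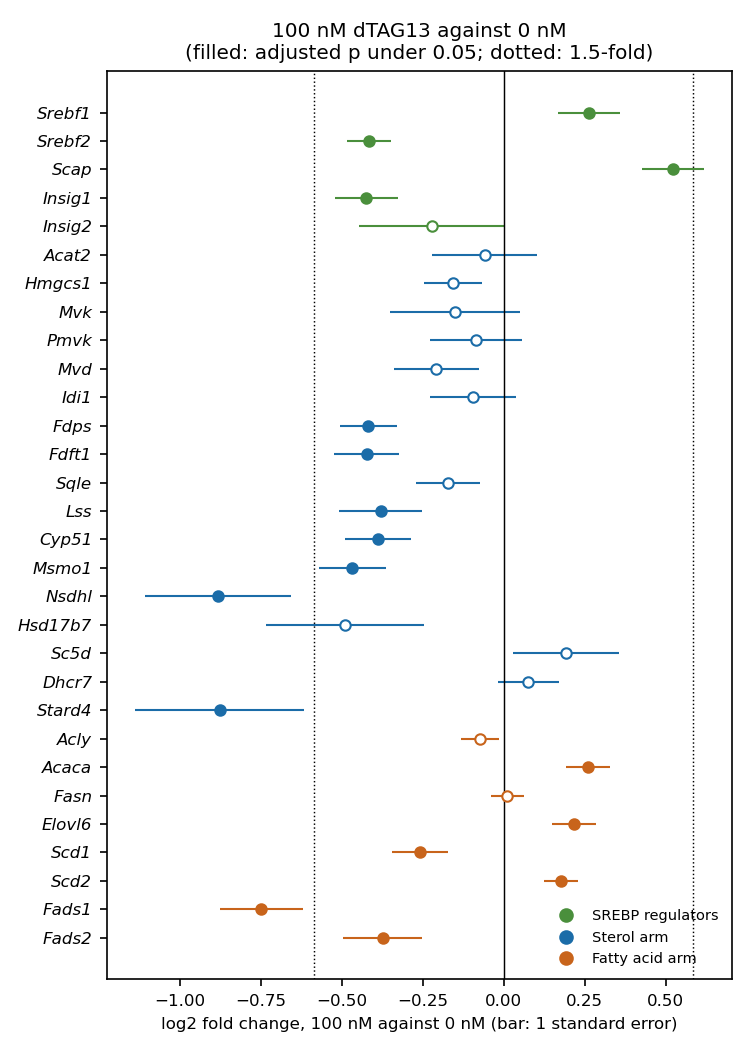
Log2 fold change at 100 nM against 0 nM (x axis) for each of the 30 genes, with bars of 1 standard error, filled where the adjusted p was under 0.05 and with dotted lines at 1.5-fold. Nsdhl, Stard4 and Fads1 lie past the lower line, Scap has the highest value at 0.52, and Fasn lies at 0.01 with a standard error of 0.0511.

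Taken over all 6 conditions, 18 of 30 members passed a test for any change, against 21.4% of all genes tested. They were 9 of 17 sterol genes, 6 of 8 fatty acid genes and 3 of 5 regulators. Scd2 (adjusted p = 1.27e-07) and Scd1 (9.05e-06) had the lowest adjusted p, followed by Srebf2 (0.000219), Fads1 (0.000738) and Fdps (0.000853). The 12 that did not pass were Acat2, Hmgcs1, Mvk, Idi1, Sqle, Hsd17b7, Sc5d and Dhcr7 of the sterol arm, Acly and Fasn of the fatty acid arm, and Srebf1 and Insig2. Without 0 nM replicate 1 the count was 11.

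By rank alone, at 100 nM 17 members had both libraries below both controls and 7 had both above, where 31.2% and 30.5% of all genes tested did so. In the sterol arm 12 of 17 were below and 2 above, and in the fatty acid arm 3 of 8 were below and 3 above. At 10 nM 22 members were below and 2 above, against 27.4% of all genes in each direction. The share of all genes tested with every dosed library on one side of both controls was not counted. Where that position is given above for single genes, as for Srebf2 and Scap, it therefore has no background share. The same controls serve every dose, so the positions at different doses are not independent of each other.

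The sample descriptions number the libraries of 0.3 and 3 nM apart from the other 8, so the contrast of 3 with 0.3 nM lies within one run of numbers. In it 2 members were lower (2.88% of all genes) and 0 higher (2.43%), namely Stard4 (log2 fold change -0.96, adjusted p = 0.0388) and Scd1 (-0.36, adjusted p = 0.0188). With DESeq2's Wald test, and without either 0.3 nM library or 3 nM replicate 2, 0 passed. The contrasts of 1, 10 and 100 nM with 0 nM lie within the other run, and they hold the calls given above for Srebf2, Scap, Insig1, Msmo1, Scd1 and Fads1. What the numbers stand for is not given in the sources used here.

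Around the members, 42 further genes of lipid synthesis, sterol sensing and efflux were listed, of which 40 were in the table and 34 tested. At 0.3 and 1 nM none passed. At 3 nM 1 was higher and 2 were lower, against 4.15% and 5.25% of all genes tested. At 10 nM 3 were higher and 7 lower (7.87% and 10.1% of all genes), and at 100 nM again 3 were higher and 7 lower (10.1% and 13.3%), with a median log2 fold change of -0.06. At 100 nM 5 of the 34 were over 1.5-fold lower and 0 higher, against 6.83% and 4.37% of all genes tested. The genes named below act in fatty acid or glycerolipid metabolism. Lpin1, a phosphatidate phosphatase, went from 6.54 to 2.24 RPKM (log2 fold change -1.54, adjusted p = 3.26e-09) and Agpat2, an acyltransferase that makes phosphatidate, from 16.8 to 6.74 RPKM (-1.31, adjusted p = 4.1e-07). Acacb, the second acetyl-CoA carboxylase, went from 8.45 to 4.44 RPKM (-0.93, adjusted p = 7.63e-08), opposite in sign to Acaca. Me1, malic enzyme, a source of NADPH, went from 12.9 to 7.87 RPKM (-0.71, adjusted p = 1.98e-05). Mid1ip1, which promotes the polymer form of acetyl-CoA carboxylase, went from 3.03 to 0.679 RPKM (-2.15, adjusted p = 0.000603). Scd3, below the filter on low values, went from 0.457 to 1.18 RPKM (1.28, adjusted p = 0.0248 in a fit of all counted genes).

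Set beside these results, the promoters divide as follows. The 4 sterol genes that were lower at 100 nM and had a matched promoter (Lss, Cyp51, Msmo1 and Nsdhl, shown above) all held CCAAT, as did 6 of 9 sterol genes that did not pass. Among the 9 is Pmvk, which held none in a window that lies inside the gene. Both regulators that were lower, Srebf2 and Insig1, held it and both that were higher, Srebf1 and Scap, did not. Only the promoter nearest the gene start was searched, of 3 listed for Srebf1 and 2 for Scap, so their other promoters could differ. Srebf2 and Insig1 had 1 each. In the fatty acid arm neither Acaca nor Elovl6, which were higher, nor Fads2, which was lower, held CCAAT. With so few promoters these are counts only, and no test was made.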

How the data were processed

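The authors deposited raw counts of read pairs per gene symbol, with exon lengths, from 12 libraries of a stranded kit. Reads were trimmed with Trim Galore, aligned to mm10 with HISAT2 and counted on exons with featureCounts 2.0.1, without strand and without multi-mapped pairs. The study describes its expression data as coming from 2 independent experiments, and adjusted p-values measure only the spread between these libraries.

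R 4.3.3 and edgeR 4.0.16 were used. Genes with mean RPKM of at least 1 were kept, TMM factors (0.947 to 1.064) were computed on them, and the 6 conditions were fitted together. Each contrast was put to the quasi-likelihood F test of edgeR, and p-values were adjusted by Benjamini and Hochberg's method over the 11378 genes. Log2 values per library used a pseudocount of 0.1 RPKM. Fold changes come from the fit. Scd3 was tested in a fit of 23204 counted genes. Alternatives included DESeq2 1.42.0 and the likelihood ratio test. Steps were tested on simulated data.

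Members, lists and tests were chosen with earlier results of these data known. Values in every library are given for the regulators, the 6 sterol and 5 fatty acid genes with the largest change at 100 nM, and members that passed at 0.3, 1 or 3 nM. Other pathway genes are named where they passed 1.5-fold at 100 nM. Replicates of a condition were compared by their counts, and no pair was alike within sampling noise. Intervals of the fit do not cover effects shared by all libraries.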

Additional observations from a re-analysis of the deposited data

How the results depend on the processing

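Of 660 values of single genes at 100 nM under 22 alternatives each, 597 kept direction and side of the threshold, 52 lost a call, 2 gained one and 9 turned sign. Calls of Srebf2, Scap, Insig1, Fdps and Fads1 held under all 22. Depth limits Hsd17b7, Stard4, Insig2, Mvk and Nsdhl most, with 101 counts or fewer in every library. The cause of the changes below was not tested.

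Members lower numbered 1 at 0.3 nM, 0 with the likelihood ratio test or no normalization factors and 2 with no filter on low values. At 1 nM they numbered 5, and 3 with DESeq2's Wald test. At 3 nM they numbered 8, 5 with no normalization factors and 13 with no filter or with normalization factors from every counted gene (added after the data were seen). At 10 nM they numbered 13, and 8 with no normalization factors. Members higher numbered 1 at 10 nM, 2 with upper quartile factors. At 100 nM they numbered 5, and 1 with no filter or with factors from every counted gene. In the contrast of 3 with 0.3 nM, 2 were lower, 0 with DESeq2's Wald test or no normalization factors and 4 with no filter or with factors from every counted gene. Over 1.5-fold, members lower were 0, 0, 2, 3 and 3 at 0.3, 1, 3, 10 and 100 nM, and members higher were 0 at 10 and 100 nM. The factors from every counted gene moved the median of all genes at 100 nM to -0.081. All-gene calls at 10 nM and 100 nM with no normalization factors were 914 and 1157 higher and 718 and 1019 lower.

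The median of the fatty acid arm at 10 nM (-0.138) was -0.08 with no normalization factors and -0.18 with no filter or factors from every counted gene. At 100 nM that of the sterol arm (-0.208) was -0.161 with no normalization factors and -0.289 with the other 2, and that of the fatty acid arm (-0.032) was -0.113 with those 2.

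With 1 library left out, a lone library being assumed to vary like the others, members lower ranged from 0 to 1 at 0.3 nM (0 without any of the 4 control and 0.3 nM libraries), 0 to 5 at 1 nM (0 without 1 nM replicate 2, 2 without either control, 3 without 1 nM replicate 1), 3 to 12 at 3 nM (3 without 0 nM replicate 1, 5 without 3 nM replicate 2), 8 to 14 at 10 nM (8 without 0 nM replicate 2 or 10 nM replicate 2) and 6 to 12 at 100 nM (6 without 100 nM replicate 1, 7 without 0 nM replicate 2). Members higher ranged from 0 to 1 at 10 nM and 1 to 5 at 100 nM (1 without 0 nM replicate 1, 2 without 100 nM replicate 2, 3 without 0 nM replicate 2). Members lower at 3 against 0.3 nM ranged from 0 to 2, and members with any change from 11 (without 0 nM replicate 1) to 19. Medians ranged from -0.38 to -0.208 (sterol, 10 nM), -0.183 to -0.122 (fatty acid, 10 nM), -0.266 to -0.07 (regulators, 10 nM), -0.30 to -0.202 (sterol, 100 nM), -0.066 to 0.003 (fatty acid, 100 nM) and -0.364 to -0.091 (regulators, 100 nM).

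Signs turned for Acat2 (0.044) and Mvk (0.005) without 0 nM replicate 1, and for Dhcr7 (-0.005) with no filter or factors from every counted gene. Fasn turned under the same 2 settings (-0.071), with edgeR's own filter (-0.009), without 0 nM replicate 2 (-0.007) and without 100 nM replicate 1 (-0.015), and with 1 library left out its value ranged up to 0.037.

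Across all genes tested, samples with the same replicate number did not deviate together (r from -0.095 to 0.093 over 15 pairs of conditions). The main fit did not pair them, and an effect shared in fewer genes was not tested. With the replicate block, members lower were 1, 4, 8, 13 and 12 at the 5 doses, 5 were higher at 100 nM, and 17 changed over the 6 conditions.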
